A study of Homo sapiens with 4 samples.

Results

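Pyruvate entry into mitochondria was described by 10 genes, chosen by name with earlier results of these data known. They were the pyruvate carrier genes MPC1 and MPC2, the pyruvate dehydrogenase genes PDHA1, PDHB and DLAT, the kinase genes PDK1, PDK2, PDK3 and PDK4, and the phosphatase gene PDP1. All 10 were found among the 65217 human genes of the deposited table, and 9 of them were among the 17075 genes with enough counts to be tested. The cells were SEM, an established leukaemia line of B-cell precursors with the fusion KMT2A-AFF1 (MLL-AF4), which both groups share. They had been kept in medium with 25 mM glucose at 21% oxygen and then transplanted into immunodeficient mice of 6 to 10 weeks, whose strain the labels do not name. There were 2 groups of 2 libraries each, cells retrieved from brain (the leptomeninges, per the protocol) and cells retrieved from spleen, enriched on a Ficoll gradient; the labels name no drug treatment and give no purity value. RNA of 5 mice was pooled in each library, so a library shows no spread between animals, and the replicate number stands for an occasion on which the experiment was run.

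Pyruvate, the end product of glycolysis, crosses the inner mitochondrial membrane through a carrier built of MPC1 and MPC2. In the matrix the pyruvate dehydrogenase complex turns it into acetyl-CoA, which feeds the tricarboxylic acid cycle and, by way of citrate, lipid synthesis. The complex is switched off when a pyruvate dehydrogenase kinase phosphorylates its alpha subunit and switched on again by a phosphatase. PDK1 is a known target of hypoxia-inducible factor, and in leukaemic as in other cells a rise of it is known as one way of keeping pyruvate out of the cycle.

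Per library 26266136 to 36913437 gene counts were listed. A gene listed at 0 may still have up to 3 counts, equal to 0.0813 to 0.114 CPM (counts per 1e6 counts of the library). All 10 markers of B-cell precursor leukaemia reached at least 34.7 TPM (a level per length, scaled over both species) in every library. Among markers of other cells, 5 of 7 of neurons and glia, 4 of 5 of meningeal fibroblasts and vessels, 3 of 4 of T cells, 3 of 5 of myeloid cells and 4 of 4 of red cells stayed under 1 TPM in every library, with SNAP25, LUM and CD3D at 0. The exceptions were SYT1 and MBP, PECAM1, TRAC, and LYZ and CSF1R. All of these are human genes, the transplanted SEM cells were human and the host was mouse. Low values therefore do not show that host cells were absent, and host RNA falls under the mouse transcripts below. The summed neuron and glia list was 77.2 and 69.1 TPM in brain against 43.9 and 32.3 TPM in spleen. MBP and SYT1 made up nearly all of that sum, and its other genes, each under 1 TPM, went both ways. The vessel list was 32.4 and 24.8 against 11.3 and 6.27 TPM, nearly all of it PECAM1. The leukaemia list also summed higher in brain (2480 and 2392 against 1899 and 1702 TPM). The T-cell list, nearly all of it TRAC, summed lower in brain (65.3 and 76.7 against 82.3 and 99.7 TPM). The myeloid list overlapped (20.3 and 17.9 against 19.8 and 15.5 TPM). Such sums of TPM are not on the scale of the test below. Mean PDHB, for example, was 82.1 TPM in brain and 75.5 in spleen, yet 83.9 and 89.1 CPM. Mouse transcripts took 2.24% and 1.45% of the estimated counts in brain and 4.31% and 6.32% in spleen. The part of mouse RNA in the results below was not tested. For this host share, fewer cells and less RNA per cell cannot be told apart in bulk RNA.

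PDK1 rose in brain and was the single member that passed the test of brain against spleen. Of 9 members tested 1 rose, 0 fell and 8 did not pass, where 1.63% of all genes tested rose, 0.387% fell and 2.02% changed in either direction (edgeR's quasi-likelihood test, Benjamini-Hochberg adjusted p under 0.05). The median log2 fold change of the 9 was 0.01, beside 0.04 over all 17075 genes. The lowest member was MPC1 at -0.28, and PDK1 was the highest at 1.27. Groups did not overlap in 6 of the 9 members, close to the 57.0% of all genes tested in which they did not overlap.

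PDK1 (ENSG00000152256, chromosome 2, 172555373 to 172608669, plus strand, GRCh38) encodes a kinase that inactivates the complex. Its level was 86.5 CPM in brain replicate 1, 76.3 in brain replicate 2, 35.6 in spleen replicate 1 and 32.0 in spleen replicate 2. Brain values are given before spleen values, and replicate 1 before replicate 2, from here on. Both brain libraries lay above both spleen libraries, and the gap between the groups exceeded the spread within either. The brain mean was 81.4 ± 7.23 CPM and the spleen mean 33.8 ± 2.54 CPM (SD over 2 libraries). The log2 fold change was 1.27 ± 0.16 (SE, 95% interval 0.90 to 1.63, edgeR adjusted p = 0.0116), a 2.41-fold higher level in brain. By size of fold change PDK1 stood at position 576 of the 17075 genes, and by p at position 69. The call held under 15 of 16 other ways of processing the data, with log2 fold changes from 0.97 to 1.36. It ended where the trend with GC content and length of the longest transcript was removed together with a block for the replicate number (log2 fold change 0.97, adjusted p = 0.0652).

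**Figure D1:**
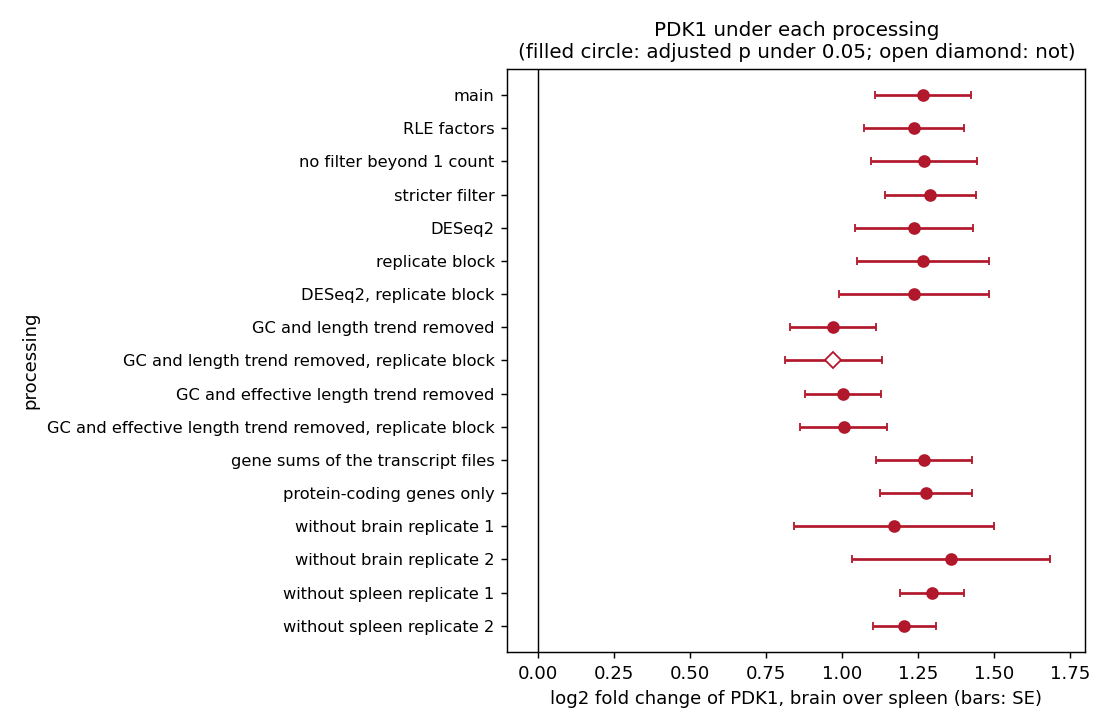
Log2 fold change of PDK1, brain over spleen, in the main fit and under 16 other ways of processing; bars are standard errors, filled circles passed an adjusted p of 0.05 and the open diamond did not. Values run from 0.97 to 1.36, and those with a GC and length trend removed are the lowest.

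A start of PDK1 is shown because it holds a pair of matches to ACGTG, the core of the element that hypoxia-inducible factor binds. Promoter windows of 300 bases, from 250 before to 50 after each gene start, came from RefSeq (GRCh38.p14) and were found for 9 member genes in 14 windows; PDP1 was not used here. ACGTG was looked for on both strands, so that the palindrome CACGTG counts on each. It was found in 5 of the 9 genes, and 5 of 14 windows (35.7%) held it, beside 21.4% of all 35116 windows of the same length. Up to 28 bases around each match are given 5′ to 3′ on the strand of the gene, with the matches in capitals (CACGT is ACGTG on the other strand).
PDK1, chr2:172556066-172556093, plus strand: tgcccgcCACGTccctCACGTaccactc
PDK2, chr17:50095211-50095238, plus strand: ccgggggaagcCACGTGccggggcggaa
PDK3, chrX:24465214-24465240, plus strand: gcgcgccgcgtACGTGcagcaaccgac
PDHB, chr3:58434052-58434079, minus strand: caccgaccaggCACGTGtgcccagcgtg
PDHB, chr3:58433849-58433875, minus strand: cggggcctgctCACGTctgccggcccc
DLAT, chr11:112025362-112025388, plus strand: attttacgacaACGTGcggctgtgcgg
Counted from the RefSeq start of the window that holds them, the matches begin at -17 and -8 in PDK1, -129 and -128 in PDK2, -61 in PDK3, -35 in DLAT, and -236, -235 and -32 in PDHB. For PDK1 that start is at 172556090, downstream of the gene start given above, and the window at the first start (172555373) held no ACGTG. For PDK2 it is at 50095351, and the other windows of PDK2 held none. PDK1 passed the test, and PDK2, PDK3, PDHB and DLAT, which hold the same letters, did not. The windows of PDK4, PDHA1, MPC1 and MPC2 held no ACGTG. The variant core GCGTG, also looked for on both strands, was in 8 of the 14 windows (57.1%), with PDHA1, MPC1 and MPC2 among the genes and none in PDK1, beside 36.5% of all windows. A match describes letters in a window and shows no binding.

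By level per length, PDK1-203, a protein-coding transcript of 2990 bases, took 59.2% and 60.7% of the PDK1 TPM in brain and 65.9% and 72.7% in spleen. Its level was 18.7 and 17.0 TPM in brain and 6.73 and 6.23 TPM in spleen. The longer PDK1-201, also protein-coding and 14193 bases long, had 3.85 and 3.70 TPM in brain and 1.67 and 1.2 TPM in spleen. By reads the pair was close: PDK1-201 took an estimated 1518, 1282, 624 and 389 counts in the 4 libraries and PDK1-203 took 1484, 1187, 507 and 405. Both transcripts were higher in each brain library than in either spleen library, as estimates without a test. No counts were listed for the pseudogene PDK1P2 in any library. On the opposite strand PDK1-AS1, a long non-coding RNA that overlaps the start of PDK1, had 6.57 and 5.68 CPM in brain and 2.40 and 1.31 CPM in spleen. It rose by 1.71 ± 0.32 on the log2 scale (edgeR adjusted p = 0.0443), a call that ended with the stricter filter (adjusted p = 0.0777) and with the GC and length trend removed together with the block (adjusted p = 0.0527). Whether strand was used in the counting is not given in the sources used here, so reads of PDK1 and PDK1-AS1 cannot be told apart with certainty. At 243, 194, 79 and 33 counts the antisense gene is small beside the 3199, 2605, 1174 and 809 counts of PDK1.

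No other kinase gene passed the test. PDK2 (ENSG00000005882, chromosome 17, 50094737 to 50112152), the most widely expressed of the kinases across tissues, had 14.5 and 12.8 CPM in brain and 9.65 and 11.5 CPM in spleen. The brain values lay above the spleen values, but the log2 fold change of 0.37 ± 0.19 did not pass (95% interval -0.08 to 0.82, edgeR adjusted p = 0.318). PDK3 (chromosome X, 24465244 to 24550466), another kinase described as responsive to hypoxia-inducible factor, had 9.65 and 10.5 CPM in brain and 8.98 and 10.6 CPM in spleen. The groups overlapped, and the log2 fold change was 0.05 ± 0.20 (95% interval -0.41 to 0.50, edgeR adjusted p = 0.921). For PDK3 the gene table held 357, 360, 296 and 268 counts, fewer than the 574, 597, 628 and 394 summed over its transcripts in the same libraries, and with those sums its log2 fold change was -0.07. PDK4 (chromosome 7, 95583499 to 95596516), the kinase induced by fasting and fatty acids, had 0 counts in all 4 libraries, which allows a level of up to 0.0813 to 0.114 CPM and no fold change.

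**Figure D2:**
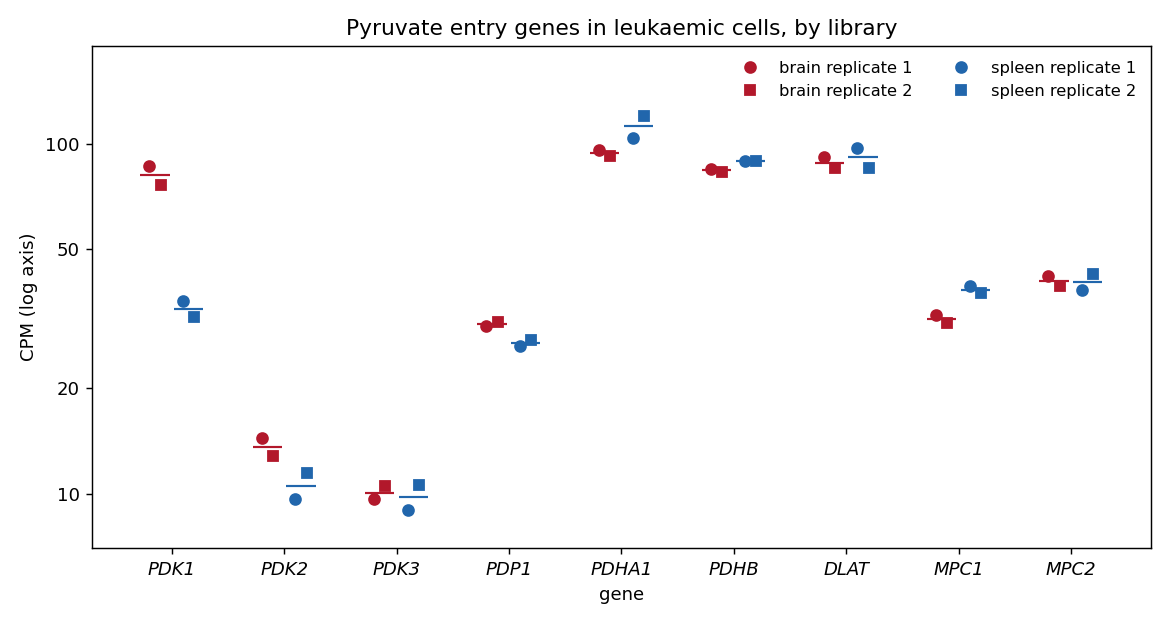
CPM of the 9 tested genes on a log axis in each of the 4 libraries; circles are replicate 1, squares replicate 2, and lines the mean of a group. PDK1 has 86.5 and 76.3 CPM in brain against 35.6 and 32.0 CPM in spleen, while the points of DLAT, MPC2 and PDK3 overlap; PDK4, with 0 counts, is left out.

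Levels per length put the kinases on one scale within a library. Within each spleen library PDK1 (10.2 and 8.56 TPM) was above PDK2 (9.05 and 7.60 TPM) and PDP1 (8.64 and 8.08 TPM). On protein-coding transcripts alone, PDK1 had 9.93 and 7.96 TPM in spleen and PDK2 had 4.83 and 4.75 TPM. In brain PDK1 had 31.6 and 28 TPM, above PDK2 with 13.1 and 12.6 TPM and PDP1 with 12.1 and 12.3 TPM. PDK3 was the lowest detected kinase, at 5.58 and 7.06 TPM in brain and 5.86 and 4.31 TPM in spleen. Of the summed kinase TPM, PDK1 made up 62.8% and 58.8% in brain against 40.7% and 41.8% in spleen. The means differed by 19.6 percentage points, more than the spread within the groups. PDK2 took 26.1% and 26.4% in brain and 36.0% and 37.1% in spleen. An exact permutation test of the PDK1 share over the 4 libraries gave p = 0.33 (two-sided), the smallest p that 2 libraries against 2 can give. Assignments to single PDK2 transcripts varied widely, with 7.27% to 37.4% of its TPM on PDK2-201, and its level per length carries that uncertainty.

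**Figure D3:**
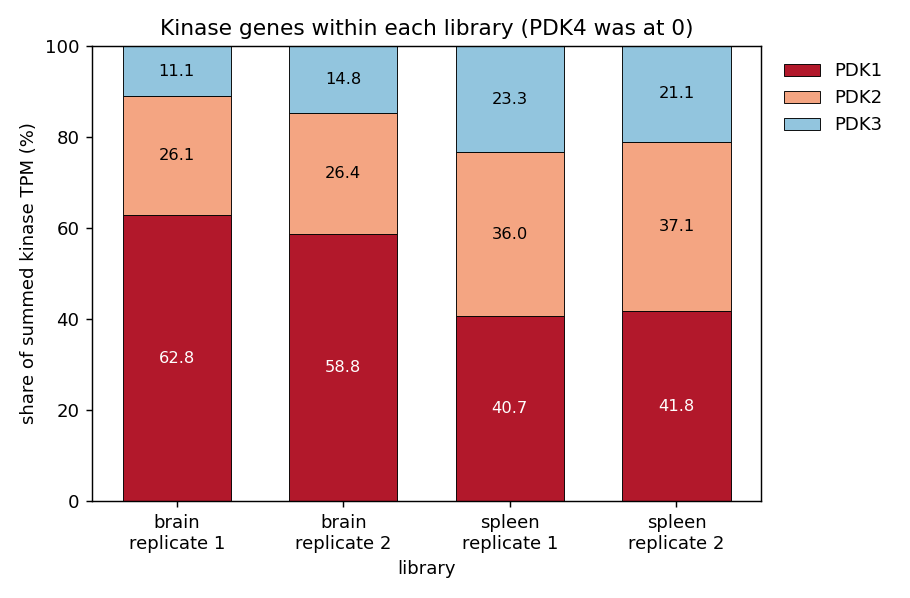
Share of PDK1, PDK2 and PDK3 in the summed TPM of the kinase genes, in percent, for each of the 4 libraries. PDK1 has 62.8% and 58.8% in brain against 40.7% and 41.8% in spleen.

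Phosphatases oppose the kinases. PDP1, a catalytic phosphatase subunit, had 30.1 and 31.1 CPM in brain and 26.4 and 27.5 CPM in spleen. Its groups did not overlap, yet the log2 fold change of 0.18 ± 0.16 did not pass (95% interval -0.18 to 0.54, edgeR adjusted p = 0.532). PDP2, the other catalytic subunit, had 25.2 and 26.0 CPM in brain and 22.1 and 28.8 CPM in spleen, with a log2 fold change of 0.01 ± 0.18 (edgeR adjusted p = 0.986). PDPR, the regulatory subunit, had 55.1 and 54.7 CPM in brain and 43.9 and 46.8 CPM in spleen and a log2 fold change of 0.28 ± 0.15 (edgeR adjusted p = 0.332), and it passed without spleen replicate 2 (0.33, adjusted p = 0.0201). PDPR has a near-identical pseudogene, and its count is therefore uncertain. The ratio of summed kinase TPM to summed TPM of PDP1 and PDP2 was 2.64 and 2.40 in brain against 1.73 and 1.42 in spleen. The 2 groups did not overlap in this ratio, and the exact permutation test (two-sided) gave the smallest possible p of 0.33.

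The genes of the complex itself did not pass. PDHA1 (chromosome X, 19343893 to 19361718), which encodes the alpha subunit that the kinases phosphorylate, had 95.9 and 92 CPM in brain and 104 and 120 CPM in spleen. Brain was the lower group, and the log2 fold change was -0.25 ± 0.15 (95% interval -0.59 to 0.08, edgeR adjusted p = 0.363). PDHB (chromosome 3, 58427630 to 58433857), the beta subunit of the same enzyme, had 84.7 and 83.2 CPM in brain and 88.9 and 89.2 CPM in spleen, a log2 fold change of -0.09 ± 0.14 (95% interval -0.40 to 0.23). DLAT (chromosome 11, 112025408 to 112064404), the acetyltransferase core, had 91.4 and 85.2 CPM in brain and 97.2 and 85.4 CPM in spleen, which overlap, with a log2 fold change of -0.05 ± 0.15 (95% interval -0.39 to 0.29). PDHX, which tethers dihydrolipoamide dehydrogenase to the core, and DLD, that dehydrogenase, stood at 0.03 ± 0.16 and -0.20 ± 0.16 on the log2 scale (edgeR adjusted p = 0.936 and 0.516). The DLD libraries from spleen were apart, with 95.5 CPM in replicate 1 and 75.7 in replicate 2, and without the latter DLD passed as lower in brain (-0.34, adjusted p = 0.00834). PDHA2, the form of the testis, had 0 counts in all 4 libraries.

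The carrier genes MPC1 and MPC2 encode partners of one transporter. MPC1 (chromosome 6, 166364919 to 166383013) had 32.4 and 30.7 CPM in brain and 39.1 and 37.4 CPM in spleen. The brain values were the lower ones without overlap, and the log2 fold change of -0.28 ± 0.15 did not pass (95% interval -0.63 to 0.08, edgeR adjusted p = 0.341). MPC2 (chromosome 1, 167916675 to 167937072) had 41.9 and 39.3 CPM in brain and 38.2 and 42.4 CPM in spleen. These overlap, and the log2 fold change was 0.01 ± 0.16 (95% interval -0.35 to 0.37). The ratio of MPC1 to MPC2 TPM was 0.807 and 0.860 in brain against 0.980 and 0.898 in spleen. MPC1L, a related carrier gene of the testis, had 0 counts.

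Calls among these genes changed with either spleen library, DLD and PDPR as given above. Without spleen replicate 1, 3 members were called: PDK1, PDHA1 (-0.41, edgeR adjusted p = 0.000486) and MPC1 (-0.30, adjusted p = 0.0385), the last 2 lower in brain. With that library left out 37.9% of all genes tested were called, and the lone spleen library is assumed to vary like the brain libraries. Without spleen replicate 2, 17.3% of all genes were called and PDK1 alone among the members, with PDHA1 at -0.13.

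**Figure D4:**
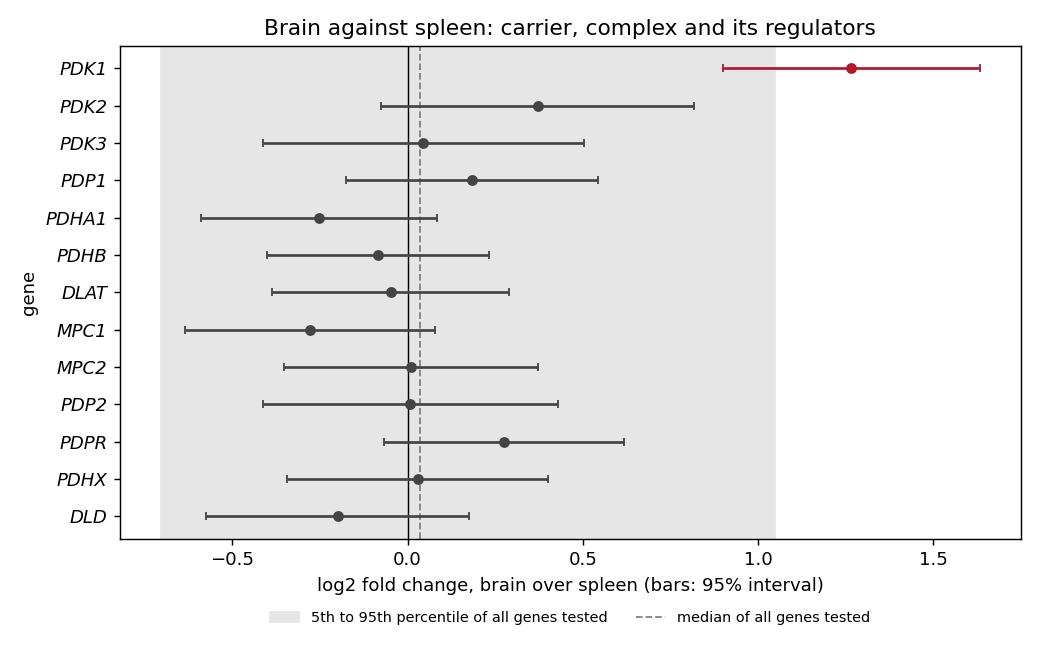
Log2 fold change, brain over spleen, of the 9 tested members and of PDP2, PDPR, PDHX and DLD, with 95% intervals from edgeR; the grey band spans the 5th to 95th percentile of all genes tested (-0.70 to 1.05) and the dashed line is their median. PDK1, in red, lies at 1.27, to the right of the band, and the intervals of all others shown include 0.

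By TPM, which compares genes within a library, PDHA1 was listed highest of the members (174, 180, 184 and 189 TPM in the 2 brain and then the 2 spleen libraries). Much of that was assigned to retained-intron transcripts of 437 and 709 bases, each with 28.4% to 34.9% of the PDHA1 TPM, and transcripts annotated as protein-coding held 35.0, 30.2, 32.1 and 35.6 TPM. PDHB followed with 81.1 and 83.1 TPM in brain and 79.9 and 71.2 in spleen, then MPC2 with 66.6 and 61.7 against 58.5 and 55.3. MPC1 had 53.7 and 53.1 TPM in brain and 57.4 and 49.7 in spleen, below MPC2 within each library. DLAT had 42.6 and 41.7 TPM in brain and 41.7 and 32.2 in spleen. On this scale the ratio of PDK1 to PDHB was 0.389 and 0.338 in brain against 0.128 and 0.12 in spleen, without overlap.

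Other genes of the pathway came from a list of 28, of which 25 were tested. None of the 25 was called, while 4 had an unadjusted p under 0.05 (3 higher and 1 lower in brain), where 20.6% of all genes tested did. Their median log2 fold change was -0.06, with 11 positive and 14 negative values. The genes VDAC1, VDAC2 and VDAC3, which form the pores by which pyruvate passes the outer membrane, were among the 4 of highest level in the lists. All 3 were lower in brain without overlap, where the groups did not overlap in 57.0% of all genes tested. None of the 3 passed, with log2 fold changes of -0.34 ± 0.15, -0.26 ± 0.16 and -0.37 ± 0.13 (edgeR adjusted p = 0.254, 0.376 and 0.171). Without spleen replicate 1, where 37.9% of all genes were called, all 3 passed. Without spleen replicate 2, where 17.3% were, VDAC3 passed at -0.35, while VDAC1 stood at -0.16 and VDAC2 at -0.07. The genes that make or attach the lipoyl group of DLAT (LIAS, LIPT1 and LIPT2) lay between 0.10 and 0.44, and SIRT4, whose product removes that group, at -0.13. Genes of thiamine supply, the cofactor of the first enzyme, lay between -0.34 and 0.00, and SLC19A3 had too few counts to be tested. PC, ME2, GPT2 and CS, which carry pyruvate or acetyl-CoA by other routes, lay between -0.09 and -0.02.

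The branched-chain ketoacid dehydrogenase complex is built like pyruvate dehydrogenase and has a kinase and a phosphatase of its own. Its genes are named here after their values were seen. PPM1K, the phosphatase, had 121 and 119 CPM in brain and 84.9 and 63.8 CPM in spleen, at 0.69 ± 0.17 on the log2 scale and short of the threshold (edgeR adjusted p = 0.088). DBT, the core of that complex, had 33.1 and 34.0 CPM in brain and 22.1 and 18.7 CPM in spleen, at 0.72 ± 0.17 and likewise short of it (edgeR adjusted p = 0.0758). BCKDHA and BCKDHB stood at 0.49 ± 0.18 and 0.29 ± 0.19, and the kinase gene BCKDK at -0.14 ± 0.17. With the replicate block in edgeR PPM1K (adjusted p = 0.00821) and DBT (adjusted p = 0.0178) passed, where 10.9% of all genes passed. Their SEs were larger with the block (0.20 and 0.23) than in the main fit, and why the adjusted p fell was not tested. By DESeq2 both passed too (adjusted p = 0.0328 and 0.0194), where 5.6% of all genes did. DESeq2 with the block ended both calls (0.132 and 0.190), as did GC and length removal with the block (0.109 and 0.159).

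**Figure D5:**
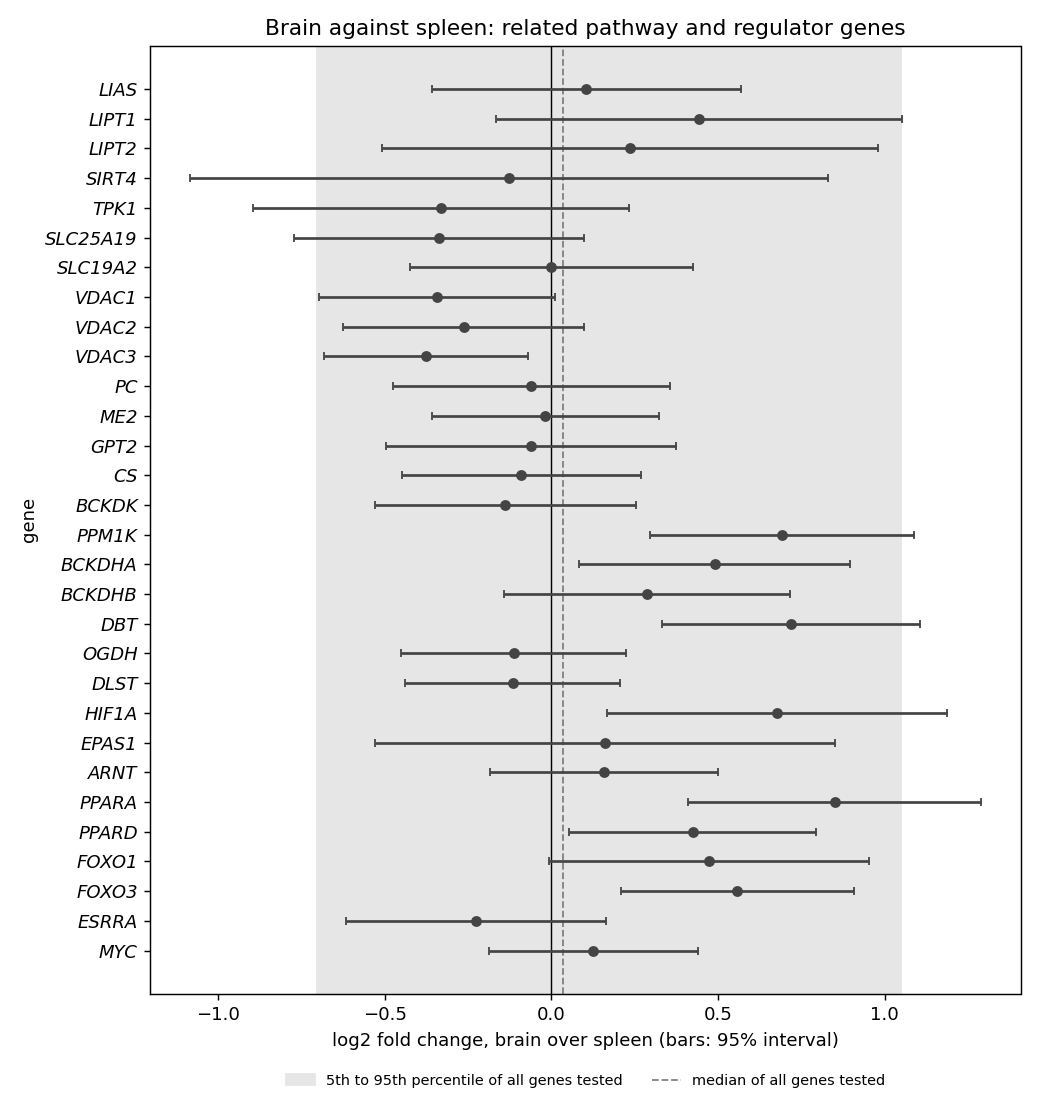
Log2 fold change, brain over spleen, of the 30 other tested genes of the pathway and regulator lists with 95% intervals from edgeR; band and dashed line as for the members, spanning -0.70 to 1.05. No gene here passed an adjusted p of 0.05; DBT at 0.72 and PPARA at 0.85 lie farthest to the right in their lists.

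Among 11 factors known to act on kinase genes, 9 were tested, 0 were called by edgeR, 4 had an unadjusted p under 0.05 and 8 lay above 0, around a median log2 fold change of 0.42. Over all genes tested 20.6% had an unadjusted p under 0.05 and 53.3% lay above 0. HIF1A, the oxygen-sensitive subunit of hypoxia-inducible factor, had 158 and 144 CPM in brain and 114 and 74.0 CPM in spleen. The spleen libraries were far apart, and the log2 fold change of 0.68 ± 0.22 did not pass (edgeR adjusted p = 0.150). In edgeR HIF1A passed with the block (adjusted p = 0.00688) and without a filter (adjusted p = 0.00103). Without a filter 2123 of 34540 genes tested were called. The log2 fold change of HIF1A ran from 0.39 to 0.97 over the 16 alternatives. By DESeq2 (0.0978), DESeq2 with the block (0.133) and GC and length removal with the block (0.110) HIF1A did not pass. PPARA, a fatty acid receptor known to act on PDK4, had 41.0 and 33.6 CPM in brain and 18.4 and 23.0 CPM in spleen. Its log2 fold change was 0.85 ± 0.19 (edgeR adjusted p = 0.070, with the block 0.00395, by DESeq2 with the block 0.114). For PPARA the gene table held 1517, 1147, 608 and 581 counts, more than the 767, 712, 380 and 260 summed over its transcripts. FOXO3 stood at 0.56 ± 0.15 (adjusted p = 0.106) and MYC, among the highest in level of the lists, at 0.13 ± 0.14 (adjusted p = 0.632). HIF1A, PPARA and FOXO3 were named after their values were seen. Of the 34 tested pathway and regulator genes DESeq2 called 3, where it called 5.6% of all genes, and edgeR with the block called 4, where it called 10.9%. DESeq2 with the block called 0 of the 34 and 2.47% of all genes.

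The genes whose pattern lay nearest to PDK1 were found by the distance between centred log2 CPM over the 4 libraries, among genes with a mean of at least 5 CPM. They were SLC2A3, a glucose transporter (distance 0.10, 52.2 and 49.4 CPM in brain and 20.9 and 19.6 CPM in spleen), PAM, a peptide-amidating enzyme (0.12), CYP51A1, an enzyme of cholesterol synthesis (0.13), DENND1C (0.14) and STC2, a secreted glycoprotein gene (0.15), all of them called higher in brain. Of the other members the nearest was PDK2, at 0.94, and the farthest MPC1, at 1.55. For MPC1, the member of lowest fold change, the nearest genes were ZNRD2, TXN, CLEC14A, CNIH4 and DPY30, at 0.02 to 0.03, and none of these 5 was called. PDHA1 and PDHB lay at 0.20 from MPC1 and DLAT at 0.25. With 4 libraries these distances describe and test nothing.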

How the data were processed

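RNA of SEM cells from brain and spleen (2 libraries each) was sequenced with a stranded mRNA kit (labels' protocols). The submitters' processing notes name kallisto 0.42.4, bcl2fastq 1.8.4, cutadapt 1.5, DESeq2 and the builds GRCh38 and GRCm38, without settings. As deposited, the authors' transcript tables hold estimated counts and TPM for 199596 human and 104229 mouse transcripts. The authors' gene table gives whole-number estimated counts by gene, not normalised; 1 column of it matched no sample and was not used, nor was the deposited log table.

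Genes were taken by identifier from GENCODE release 44 (GRCh38). Counts were tested with edgeR 4.0.16 (R 4.3.3): TMM factors, filterByExpr by group, robust quasi-likelihood fit, Benjamini-Hochberg adjustment over all 17075 genes. Each SE is the fold change divided by the root of its F value. CPM uses TMM factors; TPM serves comparison between genes, since its total includes mouse transcripts. Within groups, libraries differed beyond sampling noise (mean chi-square per gene 9.49 in brain, 67.6 in spleen). Floors cover counting error only, since no molecular identifiers tell copied reads from separate molecules.

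Replicate numbers mark an occasion of the experiment, per the labels, and so pair libraries. The main fit left this pairing out, and the replicate block was run as an alternative. Departures from the group mean, compared between libraries of one number, correlated at 0.0269 (Pearson) and -0.0149 (Spearman) across genes. Alternatives were RLE factors, 2 filters, DESeq2 1.42.0, the replicate block, removal of a GC and length trend (mgcv 1.9.3), gene sums of the transcript files, protein-coding genes alone and each library left out. The rule named all 10 members, called genes of the pathway and regulator lists, the 4 of highest TPM not called, PDP2, PDPR, PDHX and DLD, and the 5 genes nearest in pattern to the members of highest and lowest fold change. Members and lists were chosen with earlier results of these data known.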

Additional observations from a re-analysis of the deposited data

How the results depend on the processing

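The direction of PDK1 held in all 16 alternatives and its call in 15. Genes called numbered 345 (279 higher, 66 lower) and 2123 (1269 and 854) without a filter, 124 with the stricter filter, 957 (560 and 397) by DESeq2, 1853 (1278 and 575) with the replicate block, 523 after GC and length removal and 201 (184 and 17) among protein-coding genes; without 1 replicate they ranged from 404 to 6807 (spleen replicate 1 left out, 3392 and 3415; spleen replicate 2 left out, 1746 and 1382). Members called were 1, but 0 with GC and length removal and the replicate block, and 1 to 3 without 1 replicate. Pathway and regulator genes called were 0 in the main fit and in most alternatives that kept all 4 libraries. They were 5 without a filter, where 2123 of 34540 genes tested were called, and 3 by DESeq2, where 957 of 17075 were. With the replicate block they were 4, where 1853 of 17075 were called. With GC and effective length removal, an alternative chosen after seeing the data, 1 was called, as were 502 of all 17075. With gene sums of the transcript files 1 was called, as were 332 of all 16493. Without spleen replicate 1, and likewise without spleen replicate 2, more pathway and regulator genes were called than in any of these. The same held for all genes. The block changed no other member's call. The cause of these differences was not tested.

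Members near 0 changed sign. PDK3 was -0.22 and, with the block, -0.20 after GC and length removal, -0.17 and -0.16 with effective length, -0.068 with gene sums of the transcript files, and -0.12 to 0.18 without 1 replicate. PDP1 was -0.015 with GC and effective length removal and -0.0085 with the block added. MPC2 was -0.023 with RLE factors, -0.023 by DESeq2, -0.020 by DESeq2 with the block, and -0.11 to 0.097 without 1 replicate. DLAT was -0.13 to 0.0059 without 1 replicate. PDP2 was -0.026 with RLE factors and by DESeq2, -0.012 by DESeq2 with the block, -0.16 and -0.15 (block) after GC and length removal, -0.20 and -0.18 (block) with effective length, and -0.22 to 0.22 without 1 replicate. PDHX was -0.00021 with RLE factors, -0.00041 by DESeq2, and -0.058 to 0.087 without 1 replicate. MYC was -0.0080 with gene sums of the transcript files. The difference in PDK1 share stayed between 16.5 and 21.6 percentage points and that in the kinase to phosphatase ratio between 0.710 and 1.10.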
